A study of Homo sapiens with 12 samples.

Results

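ERK feedback genes are genes whose transcription rises when the MAP kinase ERK is active, and the proteins of most of them then restrain the same pathway. The DUSP phosphatases of this group remove the activating phosphates from MAP kinases, and the Sprouty and SPRED proteins dampen signalling downstream of growth factor receptors. ETV4 and ETV5 are transcription factors, listed here as transcripts that rise with ERK activity. Because their transcripts follow pathway output, such genes are widely used as a readout of ERK activity in epithelial cancers, although each of them also answers to other inputs. Integrins, the receptors that anchor cells to the extracellular matrix, are among the inputs of ERK signalling.

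The 10 genes were taken by symbol, as DUSP1, DUSP4, DUSP5, DUSP6, SPRY2, SPRY4, SPRED1, ETV4, ETV5 and PHLDA1, out of the 26485 genes in the deposited tables. Each symbol had 1 row, and all 10 were among the 14732 genes that passed the filter on low counts and were tested. The rule that takes them is by name and uses no measured value, but the list itself was drawn up with earlier results of these data known.

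The samples were spheroids of DU145, a long-established line of human prostate cancer cells, and all 12 came from a DU145 derivative in which ITGA2, the gene of the collagen receptor subunit α2 integrin, had been knocked out by CRISPR-Cas9. DU145KO (labelled CRISPR) was the knock-out with no further transfection, DU145KO+α2 (labelled a2) carried stably the pAWneo2 vector with α2 integrin cDNA, and DU145KO+vector (labelled pAW) carried the same vector empty. Both transfected lines were kept under geneticin, and the knock-out population had been sorted for lack of α2 integrin at the cell surface. Each line had 4 biological replicates, grown in serum-free medium for 72 hours as spheroids of 8000 cells. No group of unedited DU145 was analysed here, and each stable line is 1 derived line, so a property of that line and an effect of α2 integrin cannot be told apart from these samples alone.

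Total counts ran from 13948734 to 19988111 per sample. ITGA2 was at 32.5 to 41.7 RPKM (reads scaled by gene length and library depth) in DU145KO+α2, against 1.97 to 3.20 RPKM in DU145KO and 1.63 to 2.54 RPKM in DU145KO+vector. This fits the labels of the re-expressing line, while a count over the whole gene does not show the edit itself. The 5 epithelial markers KRT8, KRT18, KRT19, EPCAM and CDH1 were expressed in every sample, with a summed level of 636 to 837 RPKM in DU145KO, 602 to 742 RPKM in DU145KO+vector and 468 to 625 RPKM in DU145KO+α2. The summed level of 4 fibroblast markers was at most 2.15 RPKM, that of 4 leukocyte markers at most 2.51 RPKM and that of 3 endothelial markers at most 0.614 RPKM in any sample, and COL1A2, COL3A1, PTPRC, CD3E and VWF had at most 4 counts each in any sample. By edgeR, 3 of the 5 epithelial markers were lower in DU145KO+α2 than in DU145KO at an adjusted p below 0.05, where 5.08% of all genes tested were lower. The median log2 fold change of the 5 was -0.42. EPCAM and CDH1 were among the 3 (log2 fold changes of -1.14 and -1.13). CDH1 was also lower compared to DU145KO+vector (log2 fold change -0.70, adjusted edgeR p of 0.00981), and EPCAM was lower in DU145KO+vector than in DU145KO (log2 fold change -0.83, adjusted edgeR p of 0.00093). The part of these shifts in the results below was not tested. In these bulk samples a change of level per cell and a change in the share of cells that express a gene cannot be told apart.

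The levels of the 10 genes spanned a wide range. In RPKM, which allows genes of different length to be compared, the mean over the 12 samples was highest for DUSP5 (40.3 RPKM) and PHLDA1 (29.6 RPKM). ETV5 (12.3 RPKM), DUSP1 (11.99 RPKM), DUSP6 (9.64 RPKM), SPRED1 (7.87 RPKM), SPRY2 (6.67 RPKM) and DUSP4 (4.21 RPKM) followed, and ETV4 (1.75 RPKM) and SPRY4 (0.646 RPKM) were lowest. The range over samples of each gene overlapped that of the next gene in this order, except between PHLDA1 and ETV5 and between ETV4 and SPRY4. Against the median mean level of all genes tested (8.11 RPKM), DUSP5 stood at the 87.6th percentile and SPRY4 at the 11.1th percentile. The read support behind the values differed accordingly, with 2262 to 3896 counts per sample for PHLDA1 but only 30 to 81 counts for SPRY4 and 50 to 120 counts for ETV4.

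The spread within lines also differed between the genes. SPRED1 varied least, with a coefficient of variation of 4.13% to 10.02% in the 3 lines, while DUSP1 varied by 25.4% to 49.1% and DUSP4 by 19.0% to 34.4%. DUSP6 varied by 3.26% in DU145KO+α2 and by 12.97% and 13.9% in DU145KO and DU145KO+vector.

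**Figure D1:**
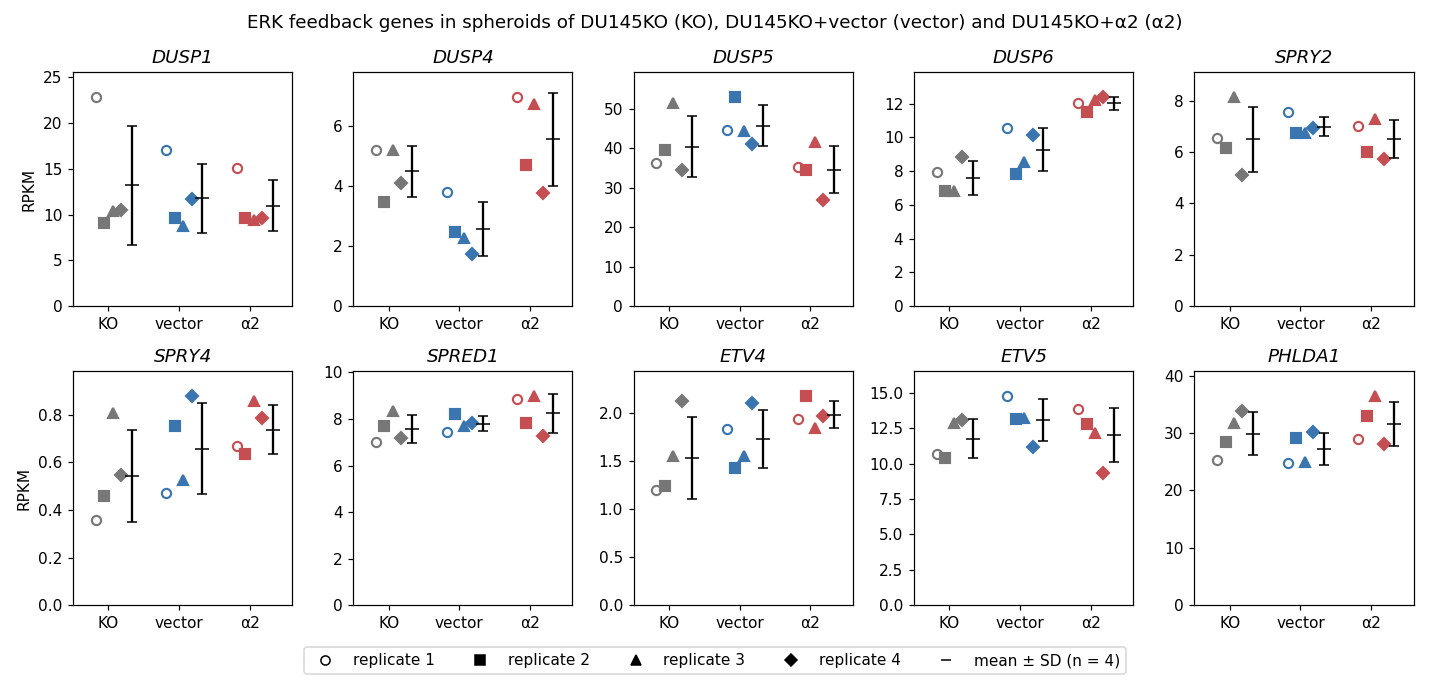
Level of each ERK feedback gene in RPKM (y axis, from 0) in the 4 replicates of DU145KO, DU145KO+vector and DU145KO+α2, with the mean and SD of each line beside the points. All 4 DU145KO+α2 samples of DUSP6 lie above all 8 others, DUSP4 is lowest in DU145KO+vector, and replicate 1 of DUSP1 is the highest point of every line.

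The effect of α2 integrin re-expression was addressed by DU145KO+α2 compared to DU145KO+vector, lines that both carry the vector and were both kept under geneticin. Of the 10 feedback genes, 2 were higher in DU145KO+α2 at an adjusted p below 0.05 (edgeR quasi-likelihood test, Benjamini-Hochberg over all genes tested) and none was lower. These were the phosphatases DUSP4 and DUSP6, and only DUSP4 also exceeded a fold change of 2. The background was 11.9% of all genes tested at that threshold, 5.96% in the higher and 5.95% in the lower direction, and 2.21% with the fold change added. The median log2 fold change was 0.12 over the 10 genes and -0.01 over all genes tested. Since a single gene is 10% of this list, 2 of 10 is not far from that background.

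Compared to the untransfected DU145KO, 1 of the 10 genes (DUSP6) was higher in DU145KO+α2 and none was lower, where 8.17% of all genes tested were called, 3.09% higher and 5.08% lower. The median log2 fold change of the 10 genes was 0.09 in that comparison. Both comparisons use the same DU145KO+α2 samples, so they do not support each other independently. DU145KO+vector compared to DU145KO addresses what the empty vector and its selection went with, and there none of the 10 genes passed the edgeR test, against 2.34% of all genes tested. At an unadjusted p below 0.05 edgeR gave 2 of the 10 (DUSP4 and DUSP6), DESeq2 called 1 at its adjusted p (DUSP4), and limma called none on voom values or on log2 RPKM.

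Samples with the same replicate number deviated from their line means together, so a fit with the replicate number as a block is given for the 10 genes wherever it changed a call, and as counts for the other lists. With the block, DUSP5 was added as lower after α2 re-expression when set against the vector line, and DUSP4 (lower) and DUSP6 (higher) passed the test in DU145KO+vector compared to DU145KO. The block also raised the background, to 26.5% of all genes tested for DU145KO+α2 compared to DU145KO+vector, 22.3% for DU145KO+α2 compared to DU145KO and 13.4% for DU145KO+vector compared to DU145KO.

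**Figure D2:**
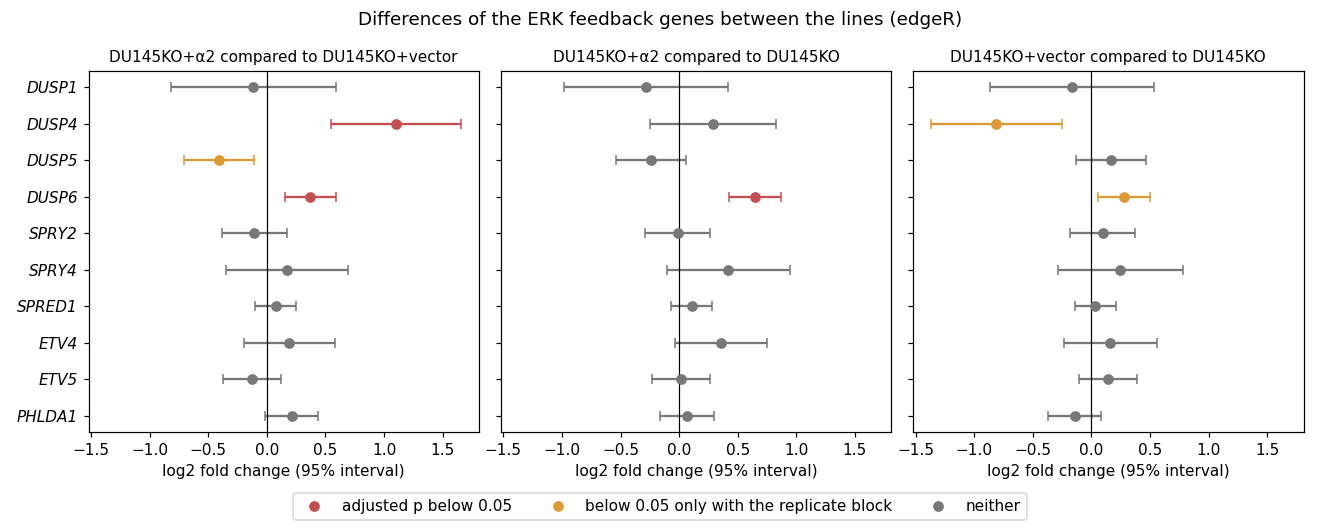
Log2 fold change of each ERK feedback gene (x axis) with its 95% interval from edgeR in the 3 comparisons, without the replicate block. Red marks an adjusted p below 0.05, yellow marks genes that pass only with the replicate block. DUSP6 is red in both comparisons of DU145KO+α2, DUSP4 in the comparison with DU145KO+vector only, and DUSP1, DUSP4 and SPRY4 have the widest intervals.

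DUSP6 (chr12:89347235-89352501 in GRCh38) encodes a cytoplasmic phosphatase that acts on ERK with high selectivity and is a classical transcriptional target of the pathway. In DU145KO+α2 it was at 12.1, 11.5, 12.2 and 12.4 RPKM in replicates 1 to 4. In DU145KO+vector it was at 10.5, 7.85, 8.54 and 10.2 RPKM, and in DU145KO at 7.96, 6.81, 6.81 and 8.84 RPKM. Every DU145KO+α2 sample was above every sample of the other 2 lines, which overlapped with each other. Among all genes tested, 16.9% had ranges that did not overlap between DU145KO+α2 and DU145KO+vector, and 12.8% between DU145KO+α2 and DU145KO.

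The log2 fold change of DUSP6 was 0.37 (SE 0.10, 1.29-fold) compared to DU145KO+vector, with an adjusted p of 0.0269 in edgeR's quasi-likelihood test. Compared to DU145KO it was 0.65 (SE 0.10, 1.57-fold), with an adjusted p of 0.000968 in the same edgeR test. At each replicate number the level was higher in DU145KO+α2, by 1.14- to 1.46-fold over DU145KO+vector and by 1.404- to 1.79-fold over DU145KO. DU145KO+vector lay between, at a log2 fold change of 0.28 (SE 0.10) over DU145KO, with an adjusted edgeR p of 0.208 without the block and 0.0162 with it. The call against DU145KO+vector rested on single libraries, since the adjusted p rose to 0.0507, 0.0639 and 0.0696 without DU145KO+α2 replicate 1, 3 or 4 and to 0.0932 and 0.0879 without DU145KO+vector replicate 2 or 3. The log2 fold change stayed between 0.30 and 0.44 in all leave-one-out fits of that comparison. The call against DU145KO was kept in each leave-one-out fit (adjusted edgeR p of 0.000497 to 0.0051). The other alternatives, the replicate block among them, kept the call against DU145KO+vector, at an adjusted p of 0.000364 to 0.0352 (edgeR, DESeq2 and limma).

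DUSP4 (chr8:29333064-29350684 in GRCh38) encodes a nuclear phosphatase of MAP kinases that ERK itself induces. Replicates 1 to 4 of DU145KO+α2 had 6.98, 4.73, 6.76 and 3.78 RPKM of it. The vector line had 3.82, 2.48, 2.27 and 1.73 RPKM, and DU145KO had 5.22, 3.48, 5.20 and 4.10 RPKM. Replicate 4 of DU145KO+α2 fell just below replicate 1 of DU145KO+vector, so those lines overlapped by 1 sample, while DU145KO+α2 and DU145KO overlapped broadly.

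The log2 fold change of DUSP4 was 1.10 (SE 0.25, 2.15-fold) in DU145KO+α2 compared to DU145KO+vector, with an adjusted edgeR p of 0.0151. At matched replicate numbers the ratio was 1.83, 1.91, 2.98 and 2.18. Compared to DU145KO the log2 fold change was 0.29, with a 95% interval of -0.25 to 0.83 and an adjusted edgeR p of 0.572. The larger distance lay between the vector line and its parent, since DU145KO+vector compared to DU145KO gave a log2 fold change of -0.81 (SE 0.25), with an adjusted edgeR p of 0.142 without the block and 0.00483 with it. All 4 matched ratios of DU145KO+vector to DU145KO were below 1 (0.423 to 0.731). Without the block, DUSP4 thus passed the test between the 2 transfected lines and in neither comparison with DU145KO.

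Some DUSP4 calls also changed when a single library was left out. Without DU145KO+vector replicate 3 the log2 fold change of DU145KO+α2 compared to DU145KO+vector was 1.05 at an adjusted edgeR p of 0.0514. Every other leave-one-out fit kept that call. The other alternatives, the replicate block among them, kept it too, at an adjusted p of 2.77e-05 to 0.0370 (edgeR, DESeq2 and limma). The fold change dropped below 2 without DU145KO+α2 replicate 1 (log2 0.98), without DU145KO+α2 replicate 3 (log2 0.998) and without DU145KO+vector replicate 4 (log2 0.96). In DU145KO+vector compared to DU145KO, leaving out DU145KO+vector replicate 1 moved the log2 fold change to -1.06 and the adjusted edgeR p to 0.0372.

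The genes around DUSP4 on chromosome 8 shifted in the same direction. The 20 tested genes nearest to it (10 on each side, between 28021964 and 30812818 in GRCh38) had a median log2 fold change of 0.44 in DU145KO+α2 compared to DU145KO+vector. Of these, 19 were above 0 and 13 were called higher by edgeR, with none called lower, where 5.96% of all genes tested were called higher. In DU145KO+α2 compared to DU145KO the median of the neighbours was 0.25 with 8 called higher, against 3.09% of all genes tested. In DU145KO+vector compared to DU145KO it was -0.14 with 18 of 20 below 0. The difference of DUSP4 exceeded in size that of each of its 20 neighbours wherever DU145KO+vector was compared, with DU145KO+α2 or with DU145KO, and that of 12 of them in DU145KO+α2 compared to DU145KO. Around the other 9 feedback genes the median of the 20 nearest genes lay between -0.20 and 0.10 in each comparison. The part of the regional shift in the DUSP4 difference was not tested.

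**Figure D3:**
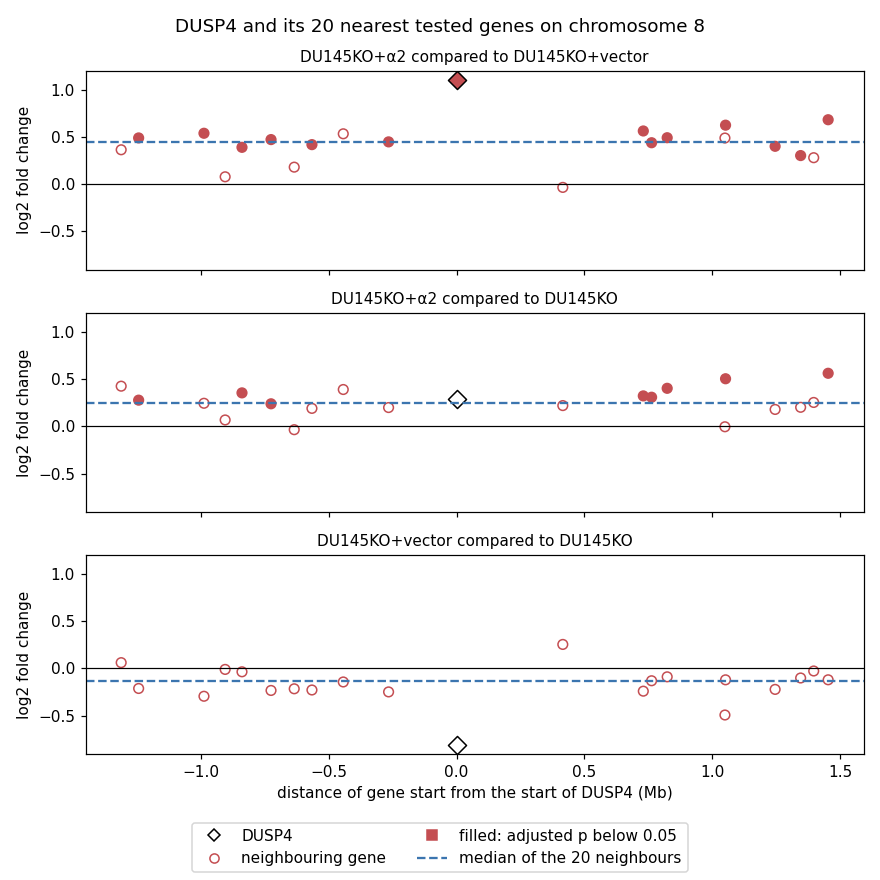
Log2 fold change (y axis) of DUSP4 (diamond) and of its 20 nearest tested genes (circles) against the distance of their starts from that of DUSP4 in megabases, in the 3 comparisons. Filled symbols passed the edgeR test and the dashed line is the median of the neighbours, at 0.44, 0.25 and -0.14 from top to bottom. DUSP4 is far from that line in the top and bottom panels and close to it in the middle panel.

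DUSP5 (chr10:110497907-110511533 in GRCh38) encodes a nuclear phosphatase that binds and inactivates ERK, and it was the most abundant transcript of the group. Its level was 35.3, 34.4, 41.6 and 27.0 RPKM in the 4 DU145KO+α2 replicates, in order of number. The 4 DU145KO+vector replicates had 44.6, 53.0, 44.4 and 41.1 RPKM, and those of DU145KO had 36.3, 39.5, 51.6 and 34.5 RPKM. Only replicate 3 of DU145KO+α2 reached the range of DU145KO+vector, and DU145KO overlapped with both.

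DUSP5 thus had the opposite sign to DUSP4 and DUSP6, with a log2 fold change of -0.41 (SE 0.14) in DU145KO+α2 compared to DU145KO+vector. Its adjusted edgeR p was 0.0777, and 0.00487 with the replicate block. At matched replicate numbers DU145KO+α2 was lower in 4 of 4 pairs, at 0.649 to 0.936 of DU145KO+vector. The adjusted p also passed the threshold with DESeq2 (0.0455) and in an edgeR fit on those 2 lines alone (0.0386). It passed in edgeR without DU145KO replicate 3 (0.0266) or DU145KO+α2 replicate 3 (0.0404). No other alternative called DUSP5, with an adjusted p of up to 0.212 (edgeR or limma) and up to 0.210 in the leave-one-out edgeR fits. Compared to DU145KO the log2 fold change was -0.24 with a 95% interval of -0.54 to 0.06.

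DUSP1 (chr5:172768096-172771195 in GRCh38) encodes a phosphatase that dephosphorylates p38 and JNK as well as ERK, and it is itself an immediate early gene, induced within minutes of a stimulus. It was at 22.9, 9.06, 10.4 and 10.5 RPKM in replicates 1 to 4 of DU145KO. In DU145KO+vector it was at 17.1, 9.62, 8.74 and 11.7 RPKM, and in DU145KO+α2 at 15.1, 9.65, 9.45 and 9.61 RPKM. Replicate 1 was the highest sample of every line, and the other 9 samples lay between 8.74 and 11.7 RPKM.

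Between the lines, DUSP1 had log2 fold changes of -0.11 (DU145KO+α2 compared to DU145KO+vector), -0.28 (DU145KO+α2 compared to DU145KO) and -0.17 (DU145KO+vector compared to DU145KO). The adjusted edgeR p was at least 0.692 in each, and the 95% intervals were wide, for instance -0.82 to 0.59 in the first. Without the samples numbered 1 in any line the first difference was -0.06 and its SE fell from 0.32 to 0.12. In a model with line and replicate number, chosen after these values were seen, DUSP1 in replicate 1 exceeded the mean of the others by a log2 difference of 0.87 (SE 0.09), where 23% of all genes tested were called at an adjusted p below 0.05 and 11% were called higher. DUSP4 followed with a log2 difference of 0.51 (SE 0.13, adjusted edgeR p of 0.0167). The replicate number as a whole was called for DUSP1, DUSP4, DUSP5 and DUSP6 in edgeR, 4 of the 10 genes, against 35.7% of all genes tested.

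Most other immediate early genes had the same high sample, while ATF3 was lowest in replicate 1 of DU145KO and DU145KO+vector. Over a list of 11 such genes, 9 were highest in replicate 1 of all 3 lines (FOS, FOSB, EGR1, JUN, JUNB, IER2, ZFP36, BTG2 and NR4A1) and KLF6 was lowest in replicate 1 of all 3, where 11.2% of all genes tested were highest in replicate 1 of all 3 lines. FOS, a subunit of the transcription factor AP-1, was at 101.8, 78.6 and 62.0 RPKM in replicate 1 of DU145KO, DU145KO+vector and DU145KO+α2, and at 7.19 to 15.7 RPKM in the other 9 samples. Among the 10 feedback genes DUSP1 and DUSP4 were highest in replicate 1 of all 3 lines, by 1.58- to 2.29-fold and by 1.23- to 1.77-fold over the mean of the other replicates. After removal of line means, DUSP1 correlated with FOS at r = 0.956 and with KLF6 at r = -0.848 over the 12 samples, a description that rests on the 3 samples numbered 1, which share whatever the number stands for. None of the 11 immediate early genes was called in any comparison between lines by edgeR, DESeq2 or limma. At an unadjusted edgeR p below 0.05 there was 1 when DU145KO+α2 was compared to DU145KO+vector, against none otherwise. With the replicate block 6 were called higher in the same comparison. The block called 3911 of all 14732 genes there (26.5%), 1898 of them higher, and the share of the list was not tested against that. In DU145KO+vector compared to DU145KO the block called 1 of the 11 lower, where 13.4% of all genes were called.

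**Figure D4:**
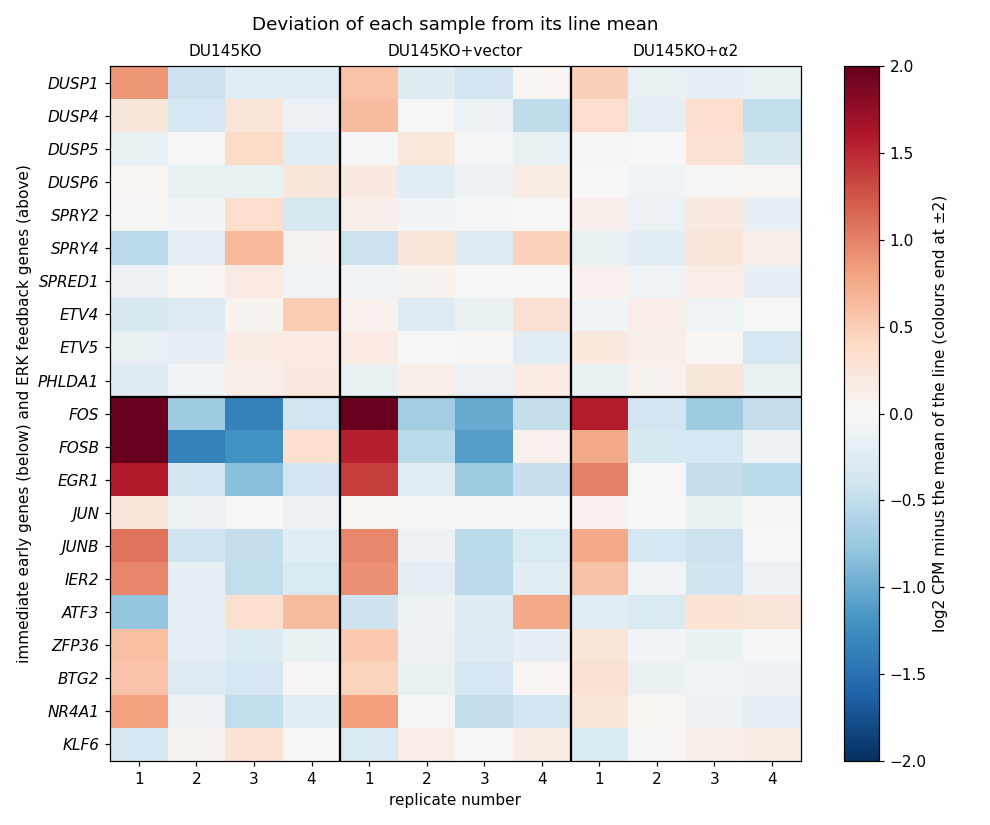
Deviation of each sample from the mean of its line (colour, in library-scaled log2 counts, ending at 2 in either direction) for the 10 ERK feedback genes (above the horizontal line) and 11 immediate early genes (below it), with the samples of the 3 lines ordered by replicate number on the x axis. DUSP1 has the same red first column in every line as FOS, EGR1, JUNB and IER2, while most feedback genes do not.

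The promoters of DUSP1 and DUSP6 are shown as those of 2 genes with unlike patterns. DUSP1 was highest in replicate 1 of every line, as were 9 of the 11 immediate early genes, and was not called between lines. DUSP6 was called in both comparisons of DU145KO+α2, but the replicate number was called for it too (adjusted edgeR p of 0.0332). Of the 10 genes, 6 had an entry in the RefSeq promoter table for GRCh38 (DUSP1, DUSP6, SPRY2, SPRY4, SPRED1 and PHLDA1). The 250 bases before the start are given 5′ to 3′ on the strand of the gene, which is the minus strand for both, at chr5:172771196-172771445 for DUSP1 and at chr12:89352502-89352751 for DUSP6. Capitals mark a CRE (TGACGTCA) and a TATA box (TATAAA).
DUSP1: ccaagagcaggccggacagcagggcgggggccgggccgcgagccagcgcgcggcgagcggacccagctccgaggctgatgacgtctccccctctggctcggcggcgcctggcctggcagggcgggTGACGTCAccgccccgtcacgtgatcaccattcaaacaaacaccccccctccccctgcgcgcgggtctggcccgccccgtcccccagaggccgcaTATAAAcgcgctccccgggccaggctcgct
DUSP6: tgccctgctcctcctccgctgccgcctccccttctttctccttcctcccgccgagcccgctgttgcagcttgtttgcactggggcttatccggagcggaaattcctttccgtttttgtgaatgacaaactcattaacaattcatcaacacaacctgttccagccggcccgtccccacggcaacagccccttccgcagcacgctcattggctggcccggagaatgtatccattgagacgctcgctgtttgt
The search covered both strands of these windows for the CRE, the AP-1 motif (TGACTCA), an ETS motif (CCGGAAGT), the CArG box, an SP1 motif (GGGGCGGGG) and the TATA box. DUSP1 held a CRE at -125 to -118 and a TATA box at -30 to -25 from the start, without overlap, and the windows of the other 5 genes held no match. Of 27305 promoters, 1.77% held the CRE, 4.16% the AP-1 motif, 3.64% the ETS motif, 1.14% the CArG box, 15.4% the SP1 motif and 11.1% the TATA box. A match is a stretch of letters and was not tested for binding or for a link to the levels of these genes.

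The Sprouty and SPRED genes passed no test in any comparison, with or without the replicate block. SPRY2, a membrane-anchored inhibitor of growth factor receptor signalling, was at 6.50 ± 1.26 RPKM in DU145KO, 7.0 ± 0.381 RPKM in DU145KO+vector and 6.52 ± 0.756 RPKM in DU145KO+α2 (SD, n = 4). SPRED1, which recruits the Ras inhibitor neurofibromin to the membrane, was at 7.56 ± 0.595, 7.80 ± 0.322 and 8.24 ± 0.826 RPKM in DU145KO, DU145KO+vector and DU145KO+α2. The interval of its log2 fold change was the narrowest of the 10 genes, at -0.10 to 0.25 for DU145KO+α2 compared to DU145KO+vector, and -0.07 to 0.28 compared to DU145KO. SPRY4, a Sprouty paralog with the lowest level of the group, was at 0.542 ± 0.193, 0.658 ± 0.191 and 0.738 ± 0.104 RPKM in the same order. Its intervals were wide, -0.35 to 0.69 for DU145KO+α2 compared to DU145KO+vector, and -0.10 to 0.95 compared to DU145KO, so that a rise of almost 2-fold over DU145KO lay within them at 30 to 81 counts per sample.

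The ETS factors and PHLDA1 passed no test either, and the lowest unadjusted edgeR p of these 6 genes in the 3 comparisons was 0.0679, that of PHLDA1 in DU145KO+α2 compared to DU145KO+vector. ETV4 was at 1.53 ± 0.425 RPKM in DU145KO, 1.73 ± 0.303 RPKM in DU145KO+vector and 1.98 ± 0.139 RPKM in DU145KO+α2 (SD, n = 4), with a log2 fold change of 0.36 and an interval of -0.04 to 0.75 in DU145KO+α2 compared to DU145KO. ETV5 was at 11.8 ± 1.401, 13.1 ± 1.48 and 12.02 ± 1.93 RPKM, and its interval against DU145KO+vector ran from -0.37 to 0.12. PHLDA1, a pleckstrin homology-like protein that dampens receptor tyrosine kinase signalling, was at 29.8 ± 3.74, 27.3 ± 2.80 and 31.6 ± 3.86 RPKM, with an interval of -0.02 to 0.44 in DU145KO+α2 compared to DU145KO+vector. In the GENCODE annotation, exons of ETV4 share 2.13% of their bases with DHX8 on the opposite strand. Those of ETV5 share 2.84% with DGKG on the same strand, and reads in such stretches may belong to either gene.

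The 10 genes did not rise and fall together across samples. Over their 45 pairs, Pearson's r of log2 levels across the 12 samples had a median of 0.13 and ran from -0.58 to 0.75. After removal of the line means the median was 0.23, with 12 pairs above 0.5 and 3 below -0.5, and the highest was that of DUSP5 with SPRED1 (r = 0.88). The 12 samples share lines, replicate numbers and libraries, so these values describe the samples only.

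For each member the 3 genes of most similar pattern were sought among 12841 other tested genes, by Pearson's r over the 12 samples. For DUSP1 these were FOS (r = 0.925), H3F3B (r = 0.924) and FOSB (r = 0.916). For DUSP6 they were SFRP1 (r = 0.953), which encodes a secreted antagonist of Wnt signalling, the potassium channel gene KCNH1 (r = 0.947) and RNF212 (r = 0.946). SFRP1 itself had log2 fold changes of 0.83 compared to DU145KO+vector and 1.14 compared to DU145KO, and KCNH1 of 0.53 and 1.07. For DUSP4 they were SLC39A6, MAGI2 and SLC4A3 (r of 0.927 to 0.935), and for DUSP5 TMEM8B, CD22 and WDR7 (r of 0.915 to 0.932). TMEM8B had a log2 fold change of -0.67 in DU145KO+α2 compared to DU145KO+vector. The 6 others led to SPATA6, MYBPH and TRAF5 for SPRY2, EIF5, DDX20 and ICAM3 for SPRY4, VPS54, GPSM2 and TNKS2 for SPRED1, ZNF557, ZKSCAN5 and PRMT5 for ETV4, MARCH2, PHYH and BTBD11 for ETV5, and TP53BP2, BCL2L11 and NFATC2 for PHLDA1, with r of 0.819 to 0.937. With so many genes searched over 12 samples, high values of r are found for any pattern.

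The paralogs of the 10 genes were listed by gene family and not as genes of ERK feedback. Of 13 listed, 11 passed the filter on low counts and DUSP2 and ETV1 did not. In DU145KO+α2 compared to DU145KO+vector 1 of the 11 was higher and none lower at the edgeR threshold, near the 11.9% called over all genes tested. This was DUSP16, a phosphatase that acts mainly on JNK and p38, with a log2 fold change of 0.48 (SE 0.11) from 2.80 to 3.04 RPKM in DU145KO+vector to 3.80 to 4.47 RPKM in DU145KO+α2. Without the block, no paralog was called by edgeR, DESeq2 or limma in DU145KO+α2 compared to DU145KO, where 2 had an unadjusted edgeR p below 0.05, or in DU145KO+vector compared to DU145KO, where 1 had. With the replicate block 2 were higher and 1 lower in DU145KO+α2 compared to DU145KO+vector, DUSP16 and DUSP8 (log2 fold change 0.64, adjusted edgeR p of 0.00235) and PHLDA3 (log2 fold change -0.61, adjusted edgeR p of 0.000151). Compared to DU145KO, DUSP16 was then higher (adjusted edgeR p of 0.0183) and PHLDA3 lower (log2 fold change -0.57, adjusted edgeR p of 0.000355), and DUSP8 was lower in DU145KO+vector than in DU145KO (adjusted edgeR p of 0.00528). These block calls are to be read against the 26.5%, 22.3% and 13.4% of all genes called with the block.

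The upstream cascade, from receptor adaptors to ERK and its kinase substrates, was listed as 23 genes, all of them tested. In DU145KO+α2 compared to DU145KO+vector 4 were higher and 2 lower by edgeR, a share of the list to be read against the 11.9% of all genes. The adaptor SHC1 was at 269.7 to 317.6 RPKM in DU145KO+α2 and 186.9 to 245.6 RPKM in DU145KO+vector (log2 fold change 0.55, SE 0.12). The docking protein gene GAB1 and RASA1, which encodes a Ras GTPase-activating protein and so restrains the cascade, had log2 fold changes of 0.26 (SE 0.08) and 0.25 (SE 0.07). In DU145KO, SHC1 was at 220.1 to 308.5 RPKM, a range that overlapped that of DU145KO+α2. RASA1 had a mean of 18.2 RPKM in DU145KO, 15.0 RPKM in DU145KO+vector and 17.9 RPKM in DU145KO+α2.

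Lower in DU145KO+α2 were the scaffold gene KSR1, at 2.32 to 2.89 against 3.45 to 3.73 RPKM (log2 fold change -0.48, SE 0.09), and RPS6KA1, a kinase that ERK activates directly (log2 fold change -0.31, SE 0.07). Compared to DU145KO, 1 gene of the cascade was called higher and 1 lower, the latter being KSR1 (log2 fold change -0.71, SE 0.09). In DU145KO+vector compared to DU145KO 1 gene was called, RASA1, which was lower (log2 fold change -0.29, SE 0.07). Over all genes tested 8.17% were called in DU145KO+α2 compared to DU145KO and 2.34% in DU145KO+vector compared to DU145KO. With the replicate block the cascade had 7 genes higher and 2 lower in DU145KO+α2 compared to DU145KO+vector, where 26.5% of all genes were called. It then had 3 higher and 2 lower in DU145KO+α2 compared to DU145KO, against 22.3% of all genes. In DU145KO+vector compared to DU145KO it had 2 lower, against 13.4%.

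Of 11 further genes known as outputs of ERK signalling, 3 were higher and none lower in DU145KO+α2 compared to DU145KO+vector by edgeR, with a median log2 fold change of 0.21. Over all genes tested 11.9% were called there and 5.96% were called higher, and the share of the list was not tested against that. The median of the list was 0.07 in DU145KO+α2 compared to DU145KO and -0.10 in DU145KO+vector compared to DU145KO. LIF, a cytokine of the interleukin-6 family, was at 25.4 to 31.7 RPKM in DU145KO+α2 against 18.9 to 23.9 RPKM in DU145KO+vector (log2 fold change 0.45, SE 0.10) and was also higher than in DU145KO (log2 fold change 0.52, SE 0.10). ERRFI1, a feedback inhibitor of the EGF receptor family, was at 126.4 to 155.2 against 96.5 to 98.2 RPKM (log2 fold change 0.55, SE 0.10). The pseudokinase gene TRIB1 had a log2 fold change of 0.32 (SE 0.08) in DU145KO+α2 compared to DU145KO+vector. TRIB1 was lower in DU145KO+vector than in DU145KO (log2 fold change -0.41, SE 0.08), as the only output that edgeR called without the block in that comparison, where DESeq2 called 2. In DU145KO, ERRFI1 was at 102.2 to 140.2 RPKM and TRIB1 at 10.6 to 12.4 RPKM, against 10.1 to 11.7 RPKM of TRIB1 in DU145KO+α2. Without the block, LIF was the only output that edgeR called in DU145KO+α2 compared to DU145KO. Without the block 8.17% of all genes tested were called in DU145KO+α2 compared to DU145KO and 2.34% in DU145KO+vector compared to DU145KO. With the replicate block 5 outputs were higher in DU145KO+α2 than in the vector line, where 26.5% of all genes were called. Then 3 were higher and 1 lower in DU145KO+α2 than in DU145KO, against 22.3% of all genes. In DU145KO+vector 4 were lower than in DU145KO, against 13.4%.

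**Figure D5:**
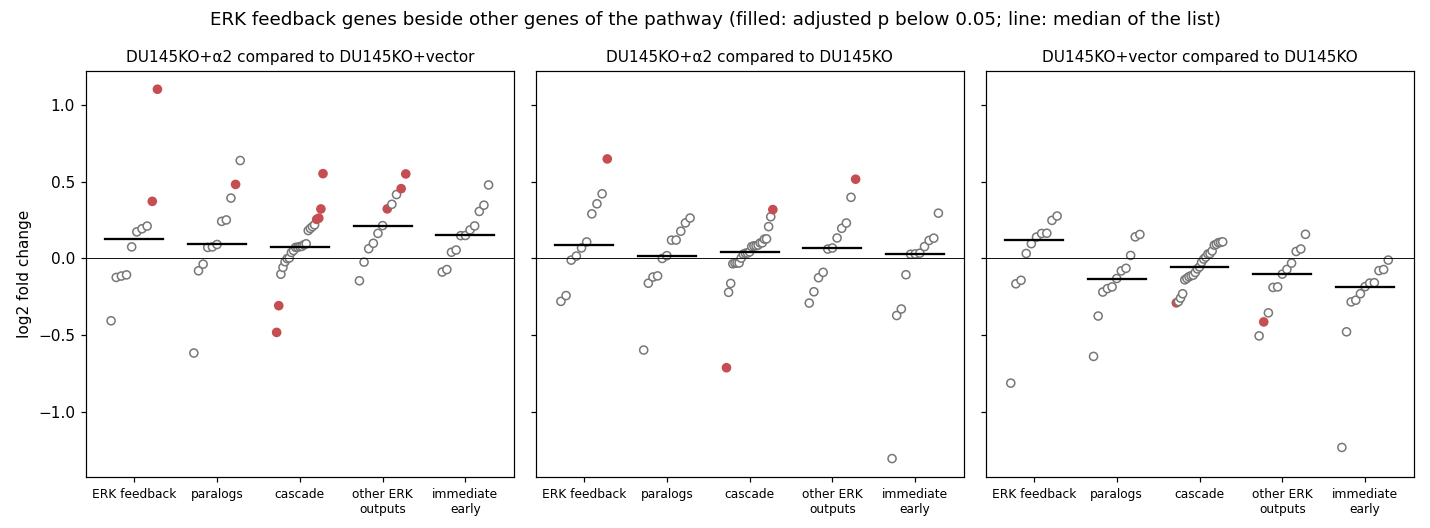
Log2 fold change (y axis) of the 10 ERK feedback genes and of the paralog, cascade, other ERK output and immediate early lists in the 3 comparisons, each point a gene, filled where the edgeR adjusted p was below 0.05, with the list median as a bar. The median of the feedback genes is 0.12, 0.09 and 0.12 from left to right, and filled points are most numerous on the left.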

How the data were processed

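Spheroids of 3 DU145 knock-out lines (4 biological replicates each, by the labels and the design text) were measured by single-end RNA sequencing of stranded libraries. The authors aligned the reads to hg38 with TopHat2 2.1.0 after base calling with bcl2fastq 1.8.4 and deposited read counts per gene made with Subread 1.5.0 from uniquely aligned reads. Strand use in counting is not given in the sources used here. The deposited RPKM values are, per the values themselves, the same counts scaled by sample and gene length. Rows without a symbol held at most 0.0635% of the counts of a sample.

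The counts were tested with the quasi-likelihood test of edgeR 4.0.16 in R 4.3.3 (TMM factors, filterByExpr with a minimum count of 10, the 12 samples in 1 model, 3 lines, two-sided, Benjamini-Hochberg over 14732 genes). A gene was called at an adjusted p below 0.05, and DE when its fold change also exceeded 2. SE is the log2 fold change divided by the root of F, and 95% intervals use the degrees of freedom of that fit. On counts simulated for DU145KO+α2 compared to DU145KO+vector over 14732 genes, 100 of 100 changes of log2 size 2 and 97 of 100 of size 1 were recovered, with 16 false calls among 14532 unchanged genes. The simulation held no effect shared by same-numbered samples and placed no change in the genes of lowest level. It held no change below log2 size 1, so it does not show how often smaller differences such as that of DUSP6 are found.

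Deviations of same-numbered samples from their line means correlated in all 12 pairs of such samples (r of 0.128 to 0.531). A fit paired by replicate number is therefore given as an alternative. The main edgeR fit ignores this pairing, and its SE, intervals and adjusted p treat the samples as unpaired. The labels do not say what a number stands for. The alternatives were a replicate block, DESeq2 1.42.0, limma 3.58.1 on voom values and on log2(RPKM + 0.1 or 1), other scalings and filters, the 2 lines alone, and each sample left out. Leaving out all samples numbered 1, and the test of the replicate number, were added after the data were seen. Positions are those of RefSeq for GRCh38, the build of the alignment. Exon overlaps are those of GENCODE, whose exons may differ from those the authors counted.

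The members and gene lists were chosen with earlier results of these data known. Genes outside the members were named by 1 rule: in each list the called genes, at most the 3 of largest change per comparison, and the 3 genes most correlated with each member. The immediate early genes beside DUSP1, and GAB1, RPS6KA1, DUSP8 and PHLDA3, were named after their values were seen, and 1 item is not reported here. Intervals cover the spread between these samples only.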

Additional observations from a re-analysis of the deposited data

Results flagged for a closer look

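Within-line extremes were sought with Dixon's ratio (the gap of the extreme sample to its neighbour over the range of the line, against the 95% critical value for 4 samples) for the 10 genes in each of the 3 lines. Of 30 groups 2 exceeded it, where chance gives about 1.5. Both were DUSP1 in replicate 1, in DU145KO (ratio 0.894, 22.9 RPKM against at most 10.5 RPKM in the other replicates) and in DU145KO+α2 (ratio 0.964, 15.1 RPKM against at most 9.65 RPKM). In DU145KO+vector replicate 1 was also the highest (17.1 RPKM) at a ratio of 0.643, below the critical value.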

How the results depend on the processing

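Over the 3 comparisons and all alternatives, 658 log2 fold changes of the 10 genes kept their direction and their side of the threshold, 6 lost the call, 9 gained it and 17 changed sign. The sign changes were in DUSP1, SPRY2 and ETV5, which passed no test in either setting. For SPRY2 in DU145KO+α2 compared to DU145KO the values were 0.0032 (voom and limma), 0.016 and 0.013 (limma on log2 RPKM with 0.1 and 1 added) and 0.0010 (no filter on low counts), and for ETV5 -0.092 without the samples numbered 1. With each sample left out in turn, SPRY2 ran from -0.11 to 0.12 there and from -0.0041 to 0.23 in DU145KO+vector compared to DU145KO, and ETV5 from -0.046 to 0.12 in DU145KO+α2 compared to DU145KO. DUSP1 ran from -0.30 to 0.13 in DU145KO+α2 compared to DU145KO+vector, from -0.46 to 0.13 in DU145KO+α2 compared to DU145KO and from -0.40 to 0.23 in DU145KO+vector compared to DU145KO, since each line loses its highest sample in 1 of these fits.

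The replicate block was a fit paired by replicate number. In DU145KO+α2 compared to DU145KO+vector it raised the calls over all genes from 1754 to 3911 and over the paralog, cascade and output lists from 10 to 17. In DU145KO+α2 compared to DU145KO these rose from 1203 to 3286 and from 3 to 11. In DU145KO+vector compared to DU145KO they rose from 344 to 1980 and from 2 to 7, and the feedback genes called from 0 to 2. Beyond the calls of DUSP4, DUSP5 and DUSP6 given above, the block changed no call of the 10 genes.

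DESeq2 gave 1 feedback gene and 587 genes in DU145KO+vector compared to DU145KO. Limma on log2(RPKM + 1) left 0 feedback genes over a fold change of 2 in DU145KO+α2 compared to DU145KO+vector. The 2 list genes called in DU145KO+vector compared to DU145KO became 1 with no filter, 1 in the fit of those lines alone and 0 without the samples numbered 1, where 219 genes were called in all. With each sample left out, the feedback genes called ran from 0 to 3 and those over a fold change of 2 from 0 to 1 in DU145KO+α2 compared to DU145KO+vector. The same counts both ran from 0 to 1 in DU145KO+vector compared to DU145KO, where all genes called ran from 160 to 528 and list genes from 1 to 3. List genes ran from 2 to 5 in DU145KO+α2 compared to DU145KO. The cause was not tested beyond the loss of a sample. Depth limits SPRY4 and ETV4 most, with as few as 30 and 50 counts in a sample, and intervals are those of 4 replicates of single derived lines.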
